A study of Mus musculus with 8 samples.

Results

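The MEK5-ERK5-MEF2 cascade was followed through 8 genes, which were taken by name from the 56980 genes of a count table of regulatory T cells (Tregs). They were the kinase genes Map3k2, Map3k3, Map2k5 and Mapk7, the transcription factor genes Mef2a, Mef2c and Mef2d, and Klf4. Map2k5 was chosen by its counts, which were steadily higher in HADA than in control libraries, and the other 7 were added as its partners in the pathway. The Map2k5 values are therefore given as a description, without a test. CD4+CD25+ Tregs were sorted from the peripheral blood of mice and sequenced in 4 libraries labelled HADA (high-altitude de-acclimatization) and 4 labelled control. The mice were male C57BL/6j bought at 8 weeks of age. HADA mice spent 28 days under hypobaric hypoxia set to 6000 m of altitude before they were moved back to normoxia, and control mice stayed in normoxia. No other allele or agent was given for either group, and neither the day of the sort nor the number of mice behind a library was stated for the RNA-seq.

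The cascade is a chain of 3 kinases. MEKK2 and MEKK3, encoded by Map3k2 and Map3k3, phosphorylate MEK5, the product of Map2k5, and MEK5 phosphorylates ERK5, the product of Mapk7. ERK5 is an unusually large MAP kinase that carries a transcriptional activation region of its own, and it is best known from growth factor, stress and shear stress signalling. It phosphorylates transcription factors of the MEF2 family, and its activation raises transcription of the Krüppel-like factors KLF2 and KLF4, which restrain proliferation and govern trafficking in lymphocytes and inflammatory activation in other cells.

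Because Map2k5 belongs to a study centred on NRF2, promoter windows of the cascade genes were searched for the NRF2 core, TGACNNNGC, and for the MEF2 box, on both strands. The windows came from RefSeq on GRCm38.p6, reach from 250 bases before to 50 bases after a gene start, and were found for 7 of the 8 genes in 10 windows. Map3k2 had no entry. The NRF2 core lay in 1 window, that of Map3k3, and in 12.4% of 32544 mouse windows of the same length. The MEF2 box also lay in 1 window, that of Mef2a, and in 3.16% of all windows. These windows are shown with that of Map2k5, which held neither motif. Capitals mark a match to a motif, and each sequence is written 5′ to 3′ on the strand of its gene.
Map2k5 promoter, chr9:63377853-63378152, minus strand: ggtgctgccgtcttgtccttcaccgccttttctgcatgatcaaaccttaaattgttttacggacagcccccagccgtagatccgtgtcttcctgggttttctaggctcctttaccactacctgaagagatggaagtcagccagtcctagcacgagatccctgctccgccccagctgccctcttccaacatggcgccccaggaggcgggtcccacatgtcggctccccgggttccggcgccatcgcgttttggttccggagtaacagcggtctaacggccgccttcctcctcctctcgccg
Map3k3 promoter, chr11:106084337-106084636, plus strand, NRF2 core: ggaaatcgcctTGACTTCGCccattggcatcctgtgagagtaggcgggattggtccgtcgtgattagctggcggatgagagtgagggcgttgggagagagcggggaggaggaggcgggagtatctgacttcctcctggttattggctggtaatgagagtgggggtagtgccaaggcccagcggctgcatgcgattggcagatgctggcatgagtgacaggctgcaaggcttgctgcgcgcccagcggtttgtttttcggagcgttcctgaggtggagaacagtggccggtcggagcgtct
Mef2a promoter, chr7:67372809-67373108, minus strand, MEF2 box: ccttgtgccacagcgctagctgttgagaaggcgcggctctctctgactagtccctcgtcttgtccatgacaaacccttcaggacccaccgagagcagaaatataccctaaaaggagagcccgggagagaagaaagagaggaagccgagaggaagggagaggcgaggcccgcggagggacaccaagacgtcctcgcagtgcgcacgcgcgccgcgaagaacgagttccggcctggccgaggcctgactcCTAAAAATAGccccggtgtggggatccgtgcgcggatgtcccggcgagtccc
The MEF2 box of Mef2a, CTAAAAATAG, was matched on both strands and fills bases 249 to 258 of the window, and the NRF2 core of Map3k3 fills bases 12 to 20. A match is a description of letters and not a binding site, and its absence from a window says nothing of the factor.

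The libraries differed in depth and background. Total counts ran from 22929193 to 28240337 in HADA and from 1477431 to 22584062 in control, where control replicate 1 was the smallest. The counts take in introns, since the counted length is the whole span of each gene, and stretches shared with another gene were not counted. Olfactory and vomeronasal receptor genes, which blood lymphocytes are not known to use, were taken as a measure of background. They held 0.0633% of all counts in control replicate 1, 0.859%, 0.421% and 0.187% in control replicates 2, 3 and 4, and 0.0841% to 0.213% in HADA (exact two-sided permutation test of the share, p = 0.343). Leaving out the 5% of receptor genes of highest density lowered their counts from 58657, 48800, 31714 and 22360 to 23825, 22983, 12551 and 11253 in HADA replicates 1 to 4. In control replicates 1 to 4 the counts fell from 935, 124100, 95007 and 40321 to 823, 118563, 91289 and 36154. The densest receptor genes thus held a larger part of this measure in HADA than in control. Hdac9, a gene with 863 kb of countable span that was named after its values were seen, lay between 0.799 and 0.957 times the receptor-gene density per kb in 7 libraries and at 1.87 times in control replicate 1. Having been picked by these values, Hdac9 is no check of the measure. Levels per kb are also given as a multiple of the receptor-gene density below, where 1 is that density, taken as background. Treg identity could not be checked on Foxp3, which was listed at 0 in every library and whose span is wholly covered by other genes. Il2ra, which encodes CD25, had 163 to 748 CPM in HADA and 178, 10.5, 7.23 and 59.5 CPM in control replicates 1 to 4, and Cd4 had 88.0 to 233.9 CPM in HADA and 199, 3.73, 4.79 and 220 CPM in control. Both defining markers were thus low in control replicates 2 and 3.

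Map3k2 and Map3k3, the kinase genes at the head of the cascade, were above background in every HADA library but not in every control library. Map3k2 (ENSMUSG00000024383, GRCm39 chromosome 18, 32296142 to 32369804) had 113, 130, 254 and 91.9 CPM in HADA replicates 1 to 4. In the control libraries it had 133, 22.8, 19.1 and 76.1 CPM. CPM are counts per 1000000 after TMM scaling, and every HADA library lay above control replicates 2 to 4 but not above control replicate 1. HADA exceeded control for Map3k2 by 1.24 on the log2 scale (standard error 0.83, adjusted p = 0.323, edgeR's quasi-likelihood test over 21991 genes). Map3k3 (ENSMUSG00000020700, chromosome 11, 105975439 to 106046272) had 48.2, 77.4, 130 and 32.0 CPM in HADA and 145, 23.7, 10.7 and 116 CPM in control. The control libraries thus lay both below and above the HADA libraries. For Map3k3 edgeR gave a log2 fold change of -0.03, with a standard error of 0.92 and an adjusted p of 0.983, and its sign turned in 6 of 16 alternatives, among them no filter on low counts (0.14) and leaving out control replicate 1 (0.63) or 4 (0.32). Per kb over the receptor genes, Map3k2 stood at 7.77 to 21.5 in HADA, and at 36.3, 0.932, 0.912 and 5.17 in control replicates 1 to 4. In control replicates 2 and 3, then, Map3k2 was at the background density, and Map3k3, at 1.02 and 0.541, was there too.

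Map2k5, the MEK5 gene, had the highest count of the 8 genes in every HADA library. It spans 214 kb on chromosome 9 (ENSMUSG00000058444, 63071050 to 63285184), no other gene overlaps it, and annotated exons make up 5.86% of the span, so that most of the counted length is intron. The HADA libraries had 911, 868, 772 and 656 CPM, from 23084, 20733, 13069 and 10904 counts. The control libraries had 47.9, 43.5, 33.1 and 35.2 CPM, from 77, 1388, 948 and 608 counts. The groups were far apart, and each was narrow. The highest library was 1.39 times the lowest in HADA and 1.45 times in control, and the SD of log2 CPM within HADA, 0.21, was below that of all but 3.97% of the tested genes. The mean was 802 ± 113 CPM (SD, n = 4) in HADA and 39.9 ± 6.92 CPM (SD, n = 4) in control, a ratio of 20.1, and the log2 fold change was 4.33 (standard error 0.68). These are the values for which the gene was picked. Of all tested genes, 9.13% had all HADA libraries above all control libraries.

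Set against the background, the control level of Map2k5 was low. The receptor-gene density predicts 2272, 1739 and 738 counts over its span in control replicates 2, 3 and 4, where 1388, 948 and 608 were found. Per kb it thus stood at 0.611, 0.545 and 0.824 times the receptor genes in these libraries, and at 4.50 times in control replicate 1. Counts of Map2k5 in control replicates 2 to 4 were thus below those predicted from the background. In HADA it stood at 21.5, 23.2, 22.5 and 26.6 times the receptor genes. Without the 5% of receptor genes of highest density the HADA values were 47.8 to 55.2 times, so the size of the gap to control depends on how the background is measured. Which part of the span the reads came from cannot be read from a count per gene.

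**Figure D1:**
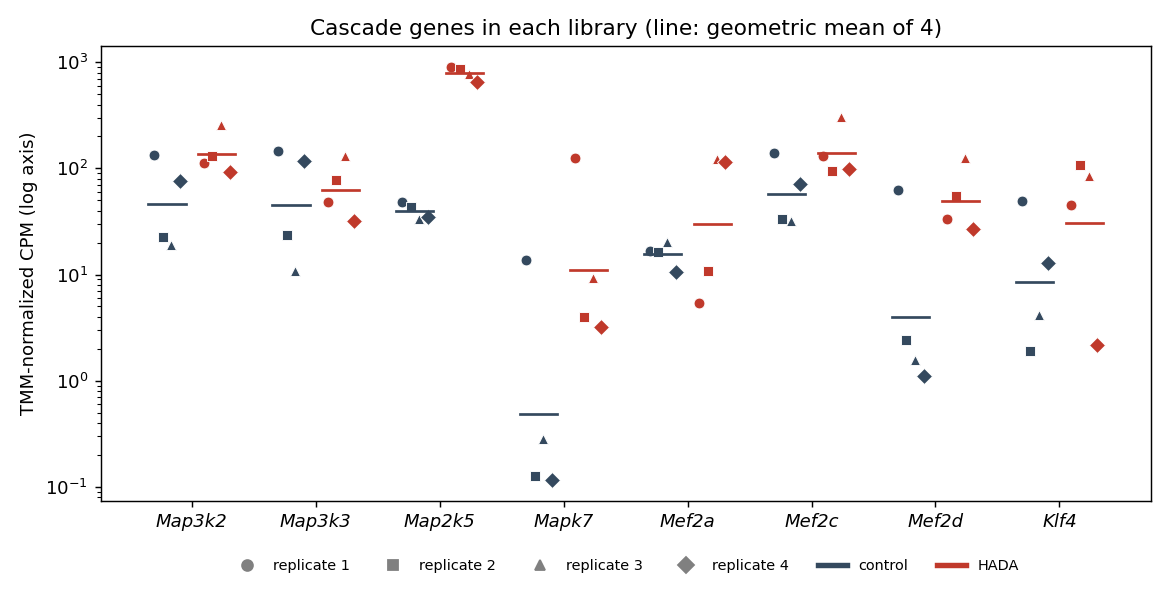
TMM-normalized CPM (log axis) of the 8 cascade genes in each of the 4 control and 4 HADA libraries; marker shapes give the replicate and lines the geometric mean. Map2k5 is the gene whose groups are apart, at 656 to 911 CPM in HADA and 33.1 to 47.9 in control, while control replicate 1 lies among the HADA libraries for most of the others.

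Mapk7, the gene of ERK5, the substrate of MEK5, reached a high level in a single HADA library. It covers only 5.6 kb of chromosome 11 (ENSMUSG00000001034, 61379638 to 61385232), of which 80.5% is exon. HADA replicate 1 had 125 CPM, from 3159 counts, and HADA replicates 2, 3 and 4 had 3.98, 9.33 and 3.19 CPM, from 95, 158 and 53 counts. Control replicate 1 had 13.7 CPM, from 22 counts, and control replicates 2, 3 and 4 had 0.125, 0.280 and 0.116 CPM, from 4, 8 and 2 counts. Control replicate 1 was therefore above HADA replicates 2, 3 and 4. Per kb of countable span Mapk7 had 22.6 CPM per kb in HADA replicate 1, above the 4.25 CPM per kb of Map2k5 there, and 0.579 to 1.70 CPM per kb in HADA replicates 2 to 4, below the 3.06 to 4.06 CPM per kb of Map2k5. Over all libraries edgeR put Mapk7 at a log2 fold change of 3.47, with a standard error of 1.79 and an adjusted p of 0.222. It was 0.58 without HADA replicate 1 (adjusted p = 0.812) and 7.74 without control replicate 1 (adjusted p = 0.0193, edgeR). Per kb over the receptor genes Mapk7 stood at 114, 4.14, 10.6 and 5.04 in HADA replicates 1 to 4 and at 49.98, 0.0685, 0.179 and 0.105 in control replicates 1 to 4, and these levels gave p = 0.114 in an exact permutation test of both directions. In the same exact test the other genes apart from Map2k5 ran from p = 0.143 for Mef2d to p = 0.743 for Map3k3.

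The MEF2 genes differed in how they varied among the libraries. MEF2 factors bind DNA through a shared MADS domain, and MEF2D and MEF2A are the forms best known from T cells while MEF2C is prominent in B cells and myeloid cells. Mef2d (ENSMUSG00000001419, chromosome 3, 88049679 to 88079393) had 33.5, 54.6, 126 and 26.7 CPM in HADA replicates 1 to 4. It had 62.1 CPM in control replicate 1 and 2.41, 1.57 and 1.10 CPM in control replicates 2, 3 and 4. Control replicate 1 was the only control library in the HADA range. With edgeR its log2 fold change came to 1.87, with a standard error of 1.30 and an adjusted p of 0.337, and without control replicate 1 it was 5.30 (adjusted p = 0.00808, edgeR). Its level in control replicates 2 to 4 was 0.189 to 0.249 times the receptor-gene density.

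Mef2a (ENSMUSG00000030557, chromosome 7, 66880911 to 67022606) split the HADA libraries. HADA replicates 3 and 4 had 124 and 115 CPM, and HADA replicates 1 and 2 had 5.44 and 10.7 CPM. The control libraries had 16.8, 16.2, 20.4 and 10.5 CPM and sat between these levels. Over the receptor genes per kb, Mef2a stood at 0.442 and 0.986 in HADA replicates 1 and 2, at 12.4 and 16.1 in HADA replicates 3 and 4, and at 0.783, 1.16 and 0.843 in control replicates 2 to 4. Control replicate 1 stood at 5.43. Measured without the 5% of receptor genes of highest density, HADA replicates 1 to 4 stood at 1.05, 2.03, 30.4 and 30.9, so that HADA replicates 3 and 4 stayed far above the other HADA libraries. For Mef2a edgeR found a log2 fold change of 1.997, with a standard error of 1.03 and an adjusted p of 0.223, and the control mean was exceeded in 2 of the 4 HADA libraries. Other genes, mainly Lysmd4, cover the 3′ part of Mef2a, and 34.1% of its exon bases could be counted.

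Mef2c (ENSMUSG00000005583, chromosome 13, 83652153 to 83815199) had 130, 93.9, 303 and 99.0 CPM in HADA and 141, 33.4, 31.9 and 70.9 CPM in control. All HADA libraries were above control replicates 2 to 4, and control replicate 1 was above 3 of them. For Mef2c edgeR gave 1.18 on the log2 scale, with a standard error of 0.79 and an adjusted p of 0.324. Of its exon bases, 61.0% lay outside the span of Gm55122 and could be counted. Over the receptor genes per kb, Mef2c stood at 5.64, 4.62, 16.3 and 7.39 in HADA replicates 1 to 4 and at 24.4, 0.862, 0.966 and 3.05 in control replicates 1 to 4. Per kb of countable span, Mef2d made up 59.0% of the 3 MEF2 genes in control replicate 1 and 48.8%, 65.7%, 48.4% and 25.3% in HADA replicates 1 to 4, against 4.63% to 13.1% in control replicates 2 to 4. In control replicates 2 and 3 all 3 genes were near or below the receptor-gene density, so the shares there do not give a MEF2 composition. The sum of the 3 genes was highest in HADA replicate 3, where each of them was at its maximum.

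**Figure D2:**
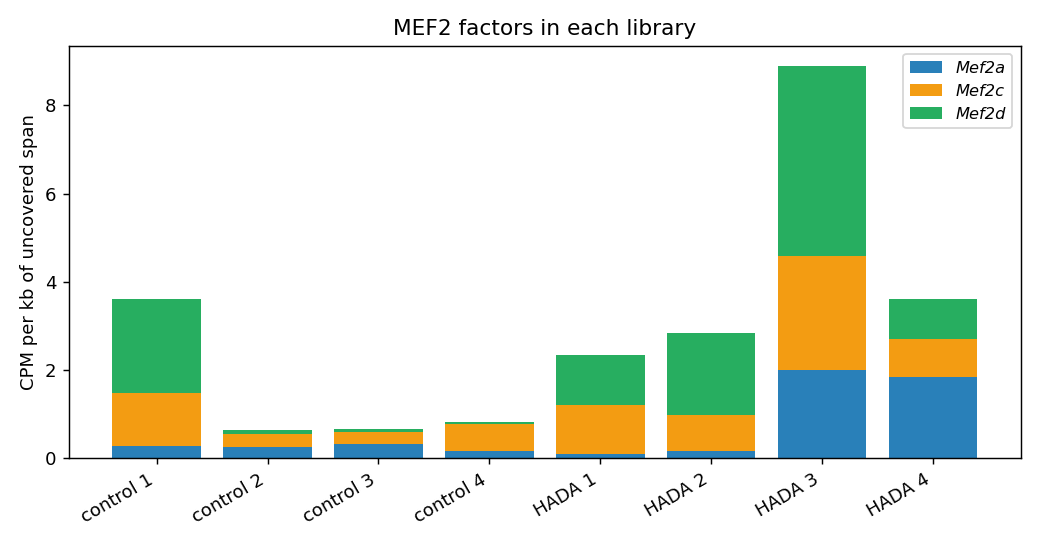
Stacked bars of TMM-normalized CPM per kb of uncovered span for Mef2a, Mef2c and Mef2d in each of the 8 libraries. HADA replicate 3 has the tallest bar, Mef2a is a large part of the bar in HADA replicates 3 and 4 (1.99 and 1.85 CPM per kb), and Mef2d is small in control replicates 2 to 4 (0.0377 to 0.0826 CPM per kb).

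Klf4, a zinc finger factor induced through ERK5 and abundant in monocytes, had the widest ratio of highest to lowest HADA library of the 8 genes, 49.9. This 5.3 kb gene (ENSMUSG00000003032, chromosome 4, 55527143 to 55532466) had 45.6, 108 and 84.9 CPM in HADA replicates 1, 2 and 3 and 2.16 CPM, from 36 counts, in HADA replicate 4. Control replicates 1 to 4 had 49.7, 1.91, 4.16 and 12.9 CPM. The lowest HADA library lay at the lower end of the controls, and the groups overlapped. With edgeR the log2 fold change of Klf4 came to 1.83, with a standard error of 1.23 and an adjusted p of 0.322. The 12 myeloid cell markers summed to 1991, 4253, 4585 and 1801 CPM in HADA replicates 1 to 4 and to 2132, 57.8, 307 and 1247 CPM in control replicates 1 to 4. Klf4 and this sum were both lowest of the HADA libraries in replicate 4 and lowest of all controls in replicate 2. In HADA, however, Klf4 was highest in replicate 2 and the sum in replicate 3. Between HADA replicates 1 and 4 the sum went from 1991 to 1801 CPM and Klf4 from 45.6 to 2.16 CPM. The part of myeloid cells in the Klf4 values was not tested. In such bulk libraries fewer cells of a type and less RNA per cell cannot be told apart.

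**Figure D3:**
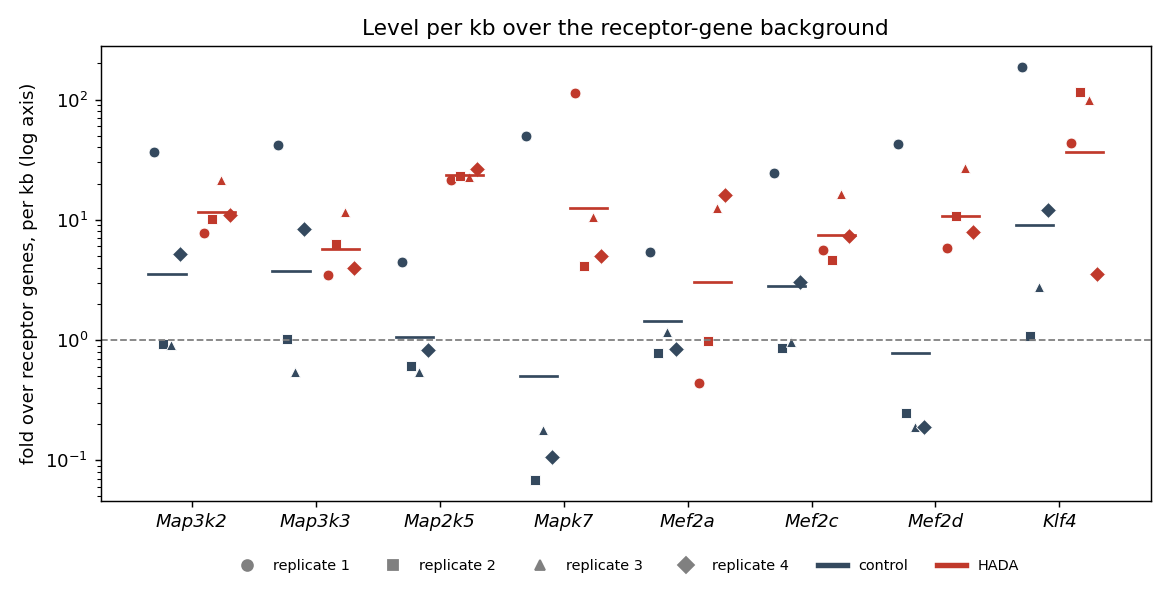
Counts per kb of uncovered span divided by the counts per kb of receptor genes in the same library (log axis), for the 8 cascade genes in 4 control and 4 HADA libraries; the dashed line at 1 is the receptor-gene density and short lines are geometric means. Map2k5 lies at 21.5 to 26.6 in HADA and at or below 0.824 in control replicates 2 to 4, and Mef2a is at 0.442 to 1.16 outside HADA replicates 3 and 4 and control replicate 1.

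None of the 7 genes other than Map2k5 changed by the thresholds used, which asked for a log2 change larger than 1, up or down, at an adjusted p under 0.05. With edgeR 0 of the 7 passed, where 2.13% of the 21991 tested genes did (1.65% higher and 0.477% lower in HADA), and 0 had an unadjusted p below 0.05, where 26.7% of the tested genes did. With DESeq2, which called 31.7% of 21158 genes (11.6% higher and 20.1% lower), 0 of the 6 genes with a p-value passed and 0 had an unadjusted p below 0.05, as 44% of genes did. Mapk7 was given no p-value. The adjusted p of the 6 ran from 0.124 for Mef2a to 0.908 for Map3k3 with DESeq2. Positive log2 fold changes were found for 6 of the 7, with a median of 1.83 against 0.01 over all genes, of which 50.2% were positive. The groups overlapped for all 7, while they were apart for 14.8% of tested genes (HADA above control for 9.13% and below for 5.7%). All HADA libraries were above control replicates 2 to 4 for Map3k2, Mapk7, Mef2c and Mef2d, as for 18.4% of tested genes. Control replicate 1 was the highest control library for 6 of the 7, Mef2a being the exception, and for 29.5% of all tested genes. Without this library, Mapk7 and Mef2d passed, both higher in HADA, where 35.1% of 24048 genes passed (15.5% higher and 19.7% lower). Whether the replicates were separate animals was not stated, and p-values measure the spread between these libraries, which may be technical.

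**Figure D4:**
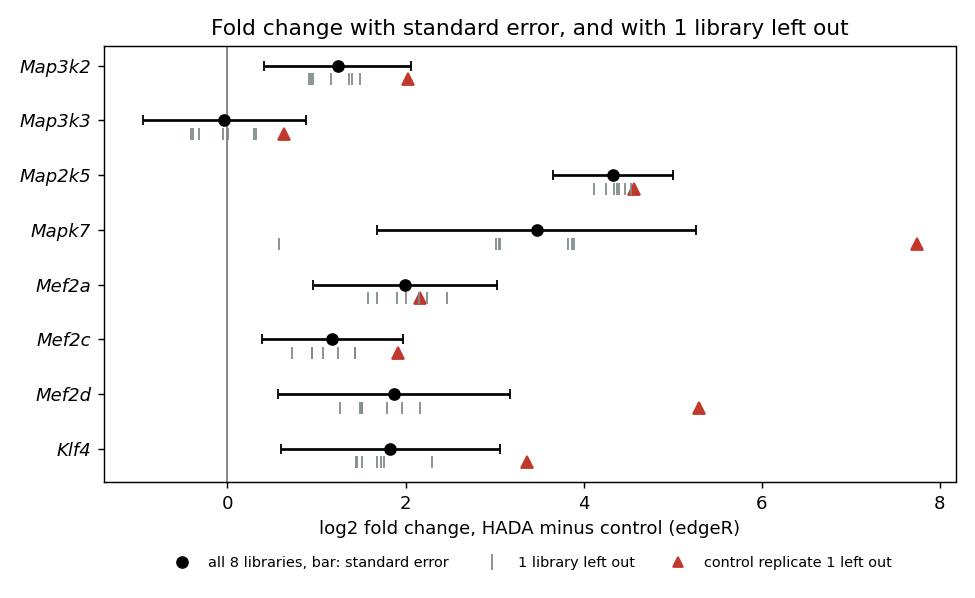
Log2 fold change (HADA minus control, edgeR) of each cascade gene with its standard error (black), and below it the value with 1 library left out (ticks) or with control replicate 1 left out (triangles). Map2k5 stays between 4.12 and 4.57, Mapk7 moves between 0.58 and 7.74, and Map3k3 falls on both sides of 0.

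Within the family of MAP kinase kinases, Map2k5 had the largest fold change of the 6 genes that could be measured. Map2k7 was listed at 0, since 0.125 kb of its span is free of other genes. Map2k1 and Map2k2, which act in the classical ERK cascade, had mean levels of 138 ± 24.6 and 46.0 ± 25.7 CPM in HADA and 113 ± 116 and 38.7 ± 46.5 CPM in control (SD, n = 4 each). Their log2 fold changes were 0.29 (adjusted p = 0.831) and 0.25 (adjusted p = 0.891, edgeR). Map2k6, an activator of p38 kinases, was the other gene of the family whose groups were apart. It had 63.1, 130, 101 and 111 CPM in HADA and 14.9, 30.3, 23.7 and 14.3 CPM in control, and edgeR gave a log2 fold change of 2.28 with a standard error of 0.74 and an adjusted p of 0.106. Map2k3, the other p38 activator, and Map2k4, a JNK activator, had 2.43 (adjusted p = 0.185) and 1.26 (adjusted p = 0.273), also by edgeR. Per kb of countable span the mean HADA level of Map2k5 was 3.74 CPM per kb, beside 3.03 for Map2k3 and 2.16 for Map2k1. In control it was 0.186 CPM per kb, beside 0.575 for Map2k3, 1.76 for Map2k1 and 0.165 for Map2k6. The difference between Map2k5 and its relatives was not tested, since Map2k5 was chosen for its fold change.

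Of 22 genes of the parallel classical ERK, p38 and JNK cascades, 21 were tested, 1 was higher and 0 were lower by the thresholds with edgeR, beside 2.13% of all genes in either direction. The gene was Mapk12, which encodes p38 gamma. It had 24.2, 27.9, 34.5 and 22.5 CPM in HADA and 0, 0.939, 0.140 and 0.927 CPM in control. All HADA libraries lay far above the control libraries, and Mapk12 rose by 5.57 on the log2 scale (standard error 1.04, adjusted p = 0.023, edgeR's quasi-likelihood test). The call was lost without control replicate 2 (adjusted p = 0.0683), 3 (adjusted p = 0.107) or 4 (adjusted p = 0.0773) and without HADA replicate 1 (adjusted p = 0.0537), with log2 fold changes of 5.23 to 6.02 in these edgeR fits. It was also lost after subtraction of the receptor-gene background (adjusted p = 0.0994) and with a replicate block (adjusted p = 0.0522, edgeR). The median log2 fold change of the 21 genes was 0.87, and 17 were positive. Mapk10, a JNK gene known from neurons and named here after its values were seen, stood at 0.384 to 0.821 times the receptor-gene density in all 8 libraries.

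**Figure D5:**
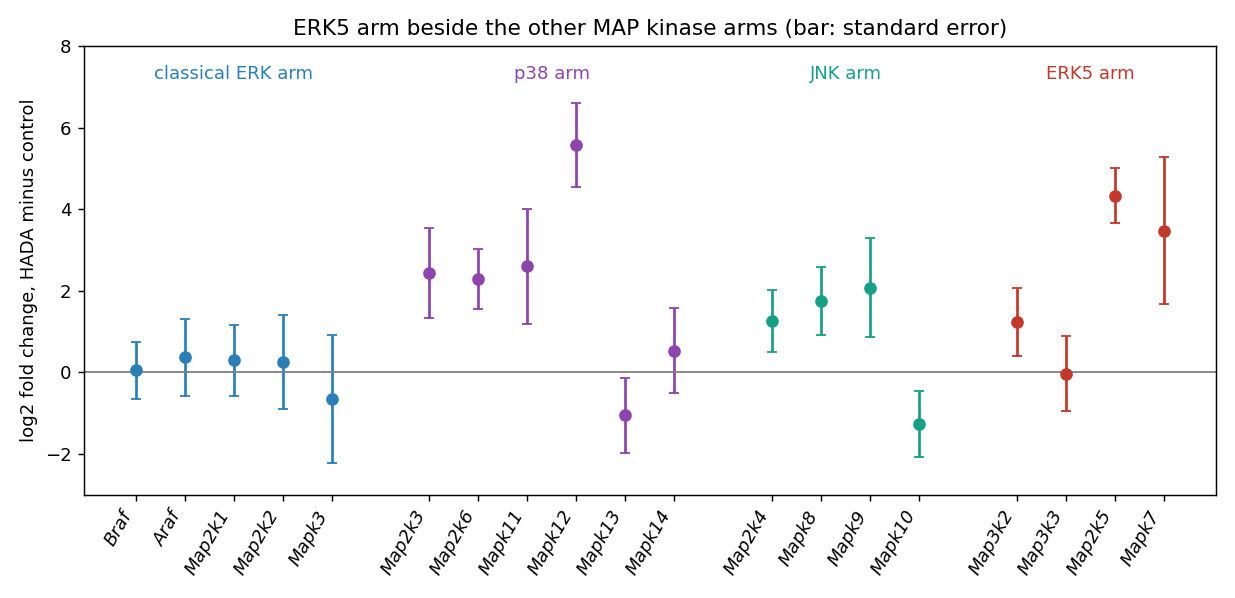
Log2 fold change (HADA minus control, edgeR) with standard error for selected kinase genes of the classical ERK, p38, JNK and ERK5 arms. Mapk12 (5.57) and Map2k5 (4.33) lie highest, and the classical ERK genes plotted run from -0.66 (Mapk3) to 0.37 (Araf), none of them past the thresholds.

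Of 12 upstream partners of the ERK5 route, 0 passed the thresholds with edgeR, where 2.13% of all genes did, and the median log2 fold change was 0.95 against 0.01 over all genes. The most abundant were Hsp90ab1, a chaperone of kinases, with a log2 fold change of 0.95 (adjusted p = 0.377, edgeR), and Lck, the T cell receptor kinase, with 0.30 (adjusted p = 0.855, edgeR). Of 14 substrates and induced genes of ERK5, 13 were tested and 0 passed (median 1.06). Klf2, which keeps lymphocytes quiescent and guides their trafficking, had 682, 690, 658 and 921 CPM in HADA and 773, 12.6, 101 and 324 CPM in control, with control replicate 1 inside the HADA range (log2 fold change 1.29, adjusted p = 0.370, edgeR). Creb1, a transcription factor, had 243 to 527 CPM in HADA and 20.2 to 202 CPM in control, so that its groups were apart (log2 fold change 1.76, adjusted p = 0.207, edgeR). Of 14 cofactors and repressors of MEF2, 0 passed (median 0.80). The most abundant were Ppp3ca, a catalytic subunit of calcineurin, with 0.82 (adjusted p = 0.418), and Camk2d, a calcium-dependent kinase, with 0.79 (adjusted p = 0.488) from the same edgeR test. With DESeq2, 7 genes of the 4 lists were higher and 1 was lower, out of 12, 13, 14 and 21 tested, where 11.6% of all genes were called higher and 20.1% lower. Bad, Cdkn1a, Camk4, Map2k3, Map2k6 and Mapk12 were among the higher genes, and the lower gene was Ppp3r1. Of these Bad, Cdkn1a, Camk4 and Ppp3r1 were named after their values were seen. Ppp3r1 stood at 3.29 times the receptor-gene density per kb in control replicate 1 and at 0.16 to 0.76 times in all other libraries. Bad stood at 0.84 times in HADA replicate 1 and at 7.58 to 14.7 times in HADA replicates 2 to 4. Cdkn1a stood at 0.42 times in HADA replicate 4 and at 9.53 to 14.2 times in HADA replicates 1 to 3. Camk4, a kinase that relieves repression of MEF2, had 101 to 495 CPM in HADA and 39.2 to 67.2 CPM in control, so that its groups were apart in CPM (log2 fold change 2.22, adjusted p = 0.113, edgeR). Per kb over the receptor genes, Camk4 stood at 5.21, 0.80, 0.76 and 0.78 in control replicates 1 to 4. In HADA replicates 1 to 4 it stood at 2.02, 4.12, 12.3 and 9.42, so the groups overlapped by this measure.

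The sorted cells held transcripts of other blood cells. The 10 T cell and Treg markers summed to 2355 to 7499 CPM in HADA and 314 to 1999 CPM in control (exact two-sided permutation test of the log2 sum, p = 0.029, the smallest that 4 libraries against 4 allow), with Foxp3 and Tnfrsf18 listed at 0. The 10 B cell markers, among them Cd79a, summed to 1539 to 4334 and 465 to 3840 CPM (p = 0.657 from the same exact test), with Ms4a1 listed at 0. In each control library the B cell sum was above the T cell sum. None of the 12 myeloid and 8 platelet markers was at 0 in every library, and their sums were 1801 to 4585 and 290 to 1781 CPM in HADA and 57.8 to 2132 and 57.7 to 599 CPM in control (p = 0.0857 for each, exact test). The erythroid sum ran from 146 to 2807 CPM in HADA and from 1029 to 28370 CPM in control (p = 0.0571, exact test), with Alas2 listed at 0, and the sum of 8 CD8 and NK cell markers from 79.7 to 952 and from 9.24 to 105 CPM (p = 0.0857, exact test). Mef2c is used by B cells and myeloid cells, and among the control libraries its level and the T cell, B cell, myeloid, platelet and erythroid sums were all highest in replicate 1. Among the HADA libraries Mef2c and the myeloid sum were highest in replicate 3, and the B cell sum was highest in replicate 4. The part of these cells in the Mef2c values was not tested.

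The tested genes most like Map2k5 by the Pearson correlation of log2 CPM over the 8 libraries were Zfp607a (r = 0.999), ENSMUSG00000079800, Sulf2, Gm18795 and B3gnt2 (r = 0.997 each). All had high HADA and low control levels, as in B3gnt2 with 1809 ± 260 against 13.9 ± 8.66 CPM (SD, n = 4 each), and the 2-group pattern alone gives such values. The cascade genes were less like it, from r = 0.22 for Map3k3 and 0.27 for Mef2a to 0.70 for Mapk7 and 0.76 for Mef2d over the same 8 libraries, which share their depth and background. Of all tested genes, 90.05% had a lower r than Mef2d and 86.28% a lower r than Mapk7, and the rest had one as high or higher. For both genes next to Map2k5 on chromosome 9 the groups overlapped. Skor1, 14.8 kb away, had at most 28 counts in any library and was not tested, and 2300009A05Rik, 16.6 kb away on the other side, had 3.87 to 44.4 CPM in HADA and 0.232 to 5.59 CPM in control, with overlapping groups (adjusted p = 0.129, edgeR).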

How the data were processed

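RNA from CD4+CD25+ cells sorted from mouse blood was amplified with a low-input cDNA kit and sequenced in 4 HADA and 4 control libraries. Per the labels, the authors used FastQC, Trimmomatic, STAR and featureCounts on GRCm39, and deposited raw counts for 56980 genes. Versions and the strand setting were not given in the sources used here. The counted length equals the whole gene span for every gene, and all 13380 genes wholly covered by another gene are at 0, so overlapping stretches, without regard to strand, carry no counts. Of the gene IDs, 56236 (98.7%) could be named from the annotation. Total counts ran from 1477431 to 28240337. No pair of libraries held identical values.

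Groups were taken from the sample titles. The counts were tested with edgeR 4.0.16 in R 4.3.3 (filterByExpr, TMM, quasi-likelihood F-test, all 8 libraries, no covariate), with Benjamini-Hochberg adjustment over 21991 genes. Calls needed a log2 change larger than 1, up or down, at an adjusted p under 0.05. Correlations used log2 CPM with a prior count of 2. Levels over background are counts per kb of uncovered span divided by those of 1776 olfactory and vomeronasal receptor genes, compared by exact two-sided permutation tests on the log2 scale. Alternatives were DESeq2 1.42.0 and its size factors, other count filters, thinning to the smallest library, background subtraction, a replicate block and leaving out each library. The code was tested on simulated data.

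The 8 genes, the partner lists and the background measure were chosen with earlier results of these data known. Apart from the 8, the text names Map2k1 to Map2k7, partner genes past the thresholds or, in lists without one, the 2 of highest mean CPM, the neighbours of Map2k5 and the 5 genes most like it, and others are said to be chosen after their values were seen. Promoter sequences were from RefSeq on GRCm38.p6, and no coordinates were carried between builds. Some genes of the lists are counted in the totals and are not reported here by name.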

Additional observations from a re-analysis of the deposited data

Results flagged for a closer look

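In 5 of 44 groups of 4 values, 1 library lay far from the other 3 by Dixon's test at the 95% level, where chance gives about 2.2. Control replicate 1 stood apart for Mapk7, with 13.7 CPM against 0.116 to 0.280 CPM in the other control libraries and 49.98 times the receptor-gene density per kb against 0.0685 to 0.179 times. The Mapk7 value rests on 22 counts in that library. Control replicate 1 also stood apart for Mef2d, at 42.9 times the receptor-gene density against 0.189 to 0.249 times. The summed platelet markers were low in HADA replicate 2, at 290 CPM against 1334 to 1781 CPM. The summed CD8 and NK cell markers were low in control replicate 2, at 9.24 CPM against 74.6 to 105 CPM.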

How the results depend on the processing

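Of all genes, 363 were higher and 105 lower in HADA (77.6% of calls higher). DESeq2 gave 2457 higher and 4247 lower (36.7% higher), and a replicate block gave 158 and 11. Without a filter 54 were lower. The number higher was 93 with at least 10 counts in every library, 126 after thinning, 107 after subtraction of the receptor-gene background, and 765 after subtraction without the 5% of receptor genes of highest density, an alternative chosen after seeing the data. Leaving out 1 library gave 28 to 3716 higher and 1 to 4732 lower, both extremes at the top being without control replicate 1. Of the 7 genes other than Map2k5, 0 passed under every alternative except without control replicate 1, where Mapk7 and Mef2d did (range 0 to 2). The partner lists gave 1 higher and 0 lower, 7 and 1 with DESeq2, 0 higher with at least 10 counts, after subtraction of the receptor-gene background or with the replicate block, and 0 to 14 higher and 0 to 1 lower with 1 library left out, 14 without control replicate 1. The causes were not tested.

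The log2 fold change of Map2k5 was 3.51 to 6.45 over 16 alternatives. Its log2 difference in level over background was 4.47, and 5.53 without the 5% of receptor genes of highest density. Map3k3 changed sign in 6 of 16. Over all genes the median of the log2 fold changes was 0.01, and -0.20 with DESeq2, -0.37 without a filter, 1.01 and 1.30 after the subtractions and -0.30 without HADA replicate 1. Relative to it, 5 to 7 of the tested genes other than Map2k5 were positive in every setting. Mapk7 could not be tested with at least 10 counts or after thinning. Same-numbered libraries did not deviate together (r = -0.207, 0.252, -0.0805 and -0.00316 for numbers 1 to 4), and only number 2 correlated best with its own, so the replicate block does not pair samples. Depth limits control replicate 1 most, where 1477431 counts were made.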
